A study of Mus musculus with 20 samples.

Results

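Iron handling was described through 10 genes, *Tfrc*, *Tfr2*, *Slc11a2*, *Steap3*, *Slc25a37*, *Fth1*, *Slc40a1*, *Hmox1*, *Ireb2* and *Aco1*, which were taken by gene symbol from the 24315 genes of each expression table. All 10 were found in the tables of both cell types, and all 10 passed the filter on low values in each, also when the double knockout libraries were left out of the mean. Expression was measured by RNA-seq as FPKM, a fragment count scaled to transcript length and to library size, in 20 libraries of sorted mouse bone marrow cells. LSK cells are the Lin-Sca1+Kit+ compartment that holds hematopoietic stem and early progenitor cells, and MEP are megakaryocyte-erythroid progenitors. C57BL/6 mice carried conditional alleles that were deleted by Mx1-Cre, an interferon-inducible recombinase switched on with pIpC, and the wild type (WT) group had neither gene deleted. The labels of all knockout libraries carry Cre and those of WT do not. By these labels, gene loss and the presence of Cre cannot be told apart in comparisons against WT. The letters XY stand only in the WT and *Dnmt3a*-/- labels, which do not explain them. In each cell type there were 3 WT, 3 *Dnmt3a*-/-, 2 *Bcor*-/- and 2 *Bcor*-/-*Dnmt3a*-/- (double knockout) libraries, and every mouse gave both an LSK and an MEP library. The exception is *Bcor*-/- replicate 1, which is labelled with 2 animals in each cell type and counts as 1 replicate. The double knockout mice are the study's model of acute erythroid leukemia and were leukemic, and the study describes deletion of *Dnmt3a* as partial in the single knockout. Ages are not given in the labels.

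Erythroid precursors take up more iron than any other marrow cell, because heme synthesis consumes it. Transferrin bound to the transferrin receptor is taken into endosomes, where the iron is released, reduced and passed to the cytosol, and most of it then goes to mitochondria. What is not used is stored in ferritin or leaves through ferroportin, and macrophages that digest old red cells free iron from heme and export it again. The iron regulatory proteins adjust this traffic by binding iron-responsive elements, short RNA hairpins: bound in front of a coding sequence they hold back translation, and bound behind it they protect the transcript from decay.

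Matches to a strict pattern of these hairpins were found in some of the members, so their sequences are shown first. Untranslated regions of protein-coding transcripts in the GENCODE annotation of GRCm38 were searched, on the transcript strand only, for the pattern CNNNNNCAGUGNNNNNN, with the 5 bases before the 6-base loop required to pair with the 5 bases after it and G-U pairs allowed. The pattern occurred in the 5′ untranslated region of 0.148% of genes and in the 3′ untranslated region of 0.614% of genes. Among the 10 members it was found in 3. *Tfrc* carried 4 copies in its 3′ untranslated region, and *Fth1* and *Slc40a1* carried 1 copy each in the 5′ untranslated region. Each is printed 5′ to 3′ as RNA, with the loop in capitals and with its position in GRCm38.
*Tfrc*, 3′ untranslated region, chr16:32631219-32631248, plus strand: aauuaucggaagCAGUGCcuuccauaauua
*Tfrc*, 3′ untranslated region, chr16:32631598-32631627, plus strand: cauuaucgggagCAGUGUcuuccauaaugc
*Tfrc*, 3′ untranslated region, chr16:32631663-32631692, plus strand: cuauaucggagaCAGUGAucuccauauguu
*Tfrc*, 3′ untranslated region, chr16:32631710-32631739, plus strand: aauuaucgggaaCAGUGUuucccauaauuu
*Fth1*, 5′ untranslated region, chr19:9982732-9982761, plus strand: uuccugcuucaaCAGUGCuugaacggaacc
*Slc40a1*, 5′ untranslated region, chr1:45925464-45925493, minus strand: caacuucagcuaCAGUGUuagcuaaguuug
A match is a description of the letters. Because the pattern demands 5 unbroken pairs, it passes over hairpins with a bulge or mismatch there. A member without a match may therefore still hold an element, and the copies found may not be all. The deposited tables were made on another build, mm9, and hold RNA levels only, so neither translation nor binding of the regulatory proteins was measured.

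Depth is unknown, because the tables hold no read counts, and precision rests on the 2 or 3 libraries per group. The FPKM of a library summed to between 413482 and 522688 in LSK and between 424662 and 476071 in MEP, apart from 625758 in the MEP library of double knockout mouse 2. The level of a whole gene does not check the labels here, since it does not show the deleted exons by themselves, and the targeted genes were not low in every library labelled as deleted. The study reports that *Bcor* mRNA could not be detected by PCR in *Bcor*-/- LSK, and that the protein was lost in lineage-negative marrow cells. Why FPKM of *Bcor* remained in the libraries below was not tested. *Bcor* stood at 22.4 and 23.2 FPKM in *Bcor*-/- LSK against 29.6 to 32.4 in WT, but at 24.0 and 37.5 in double knockout LSK. *Dnmt3a* stood at 10.3 and 10.9 FPKM in double knockout LSK against 16.1 to 19.9 in WT, but at 6.85 and 3.43 in double knockout MEP against 5.49 to 6.64. Of the genes that define LSK, *Kit* was 47.7 and 19.4 FPKM in double knockout LSK against 148 to 174 in WT, while *Ly6a*, which encodes Sca1, was 63.5 and 220.2 against 59.8 to 70.7. The study's MEP are also Kit+, and *Kit* was 38.1 and 20.25 FPKM in double knockout MEP against 77.0 to 83.5 in WT. Of 11 stem and progenitor markers 9 were called lower in double knockout LSK (median of their log2 fold changes, -3.06), as were 4 of 8 megakaryocyte markers. Both double knockout mice also differed from each other in marker genes of other cells. Mouse 1 had a summed level of 14 macrophage markers of 1960 FPKM in LSK and 1025 in MEP, against 75.9 to 419 and 8.19 to 12.9 in WT. Mouse 2 had a summed level of 15 erythroid markers of 24436 FPKM in LSK and 98846 in MEP, against 439 to 605 and 5178 to 7682 in WT, although *Hbb-b1* is listed at 0 in that MEP library. In mouse 1 this sum was 7447 FPKM in LSK, also above WT, and 6635 in MEP. The globin genes *Hba-a1*, *Hbb-b1* and *Hbb-b2* made up most of both LSK sums. In LSK, *Klf1*, *Epor*, *Ermap*, *Car1* and *Car2* were higher in mouse 1, and the other listed erythroid markers were higher in mouse 2. The summed level of 8 lymphoid markers was 1383 and 1072 FPKM in double knockout LSK and 990 and 195 in double knockout MEP, against 217 to 259 and 65.8 to 75.1 in WT. That of 10 granulocyte markers was 6797 and 15276 FPKM in double knockout MEP, against 313 to 776 in WT. In LSK it was 8258 and 8421 FPKM, within the WT range of 3543 to 13367. In sorted bulk samples, a change in the share of a cell type and a change of RNA per cell cannot be told apart.

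**Figure D1:**
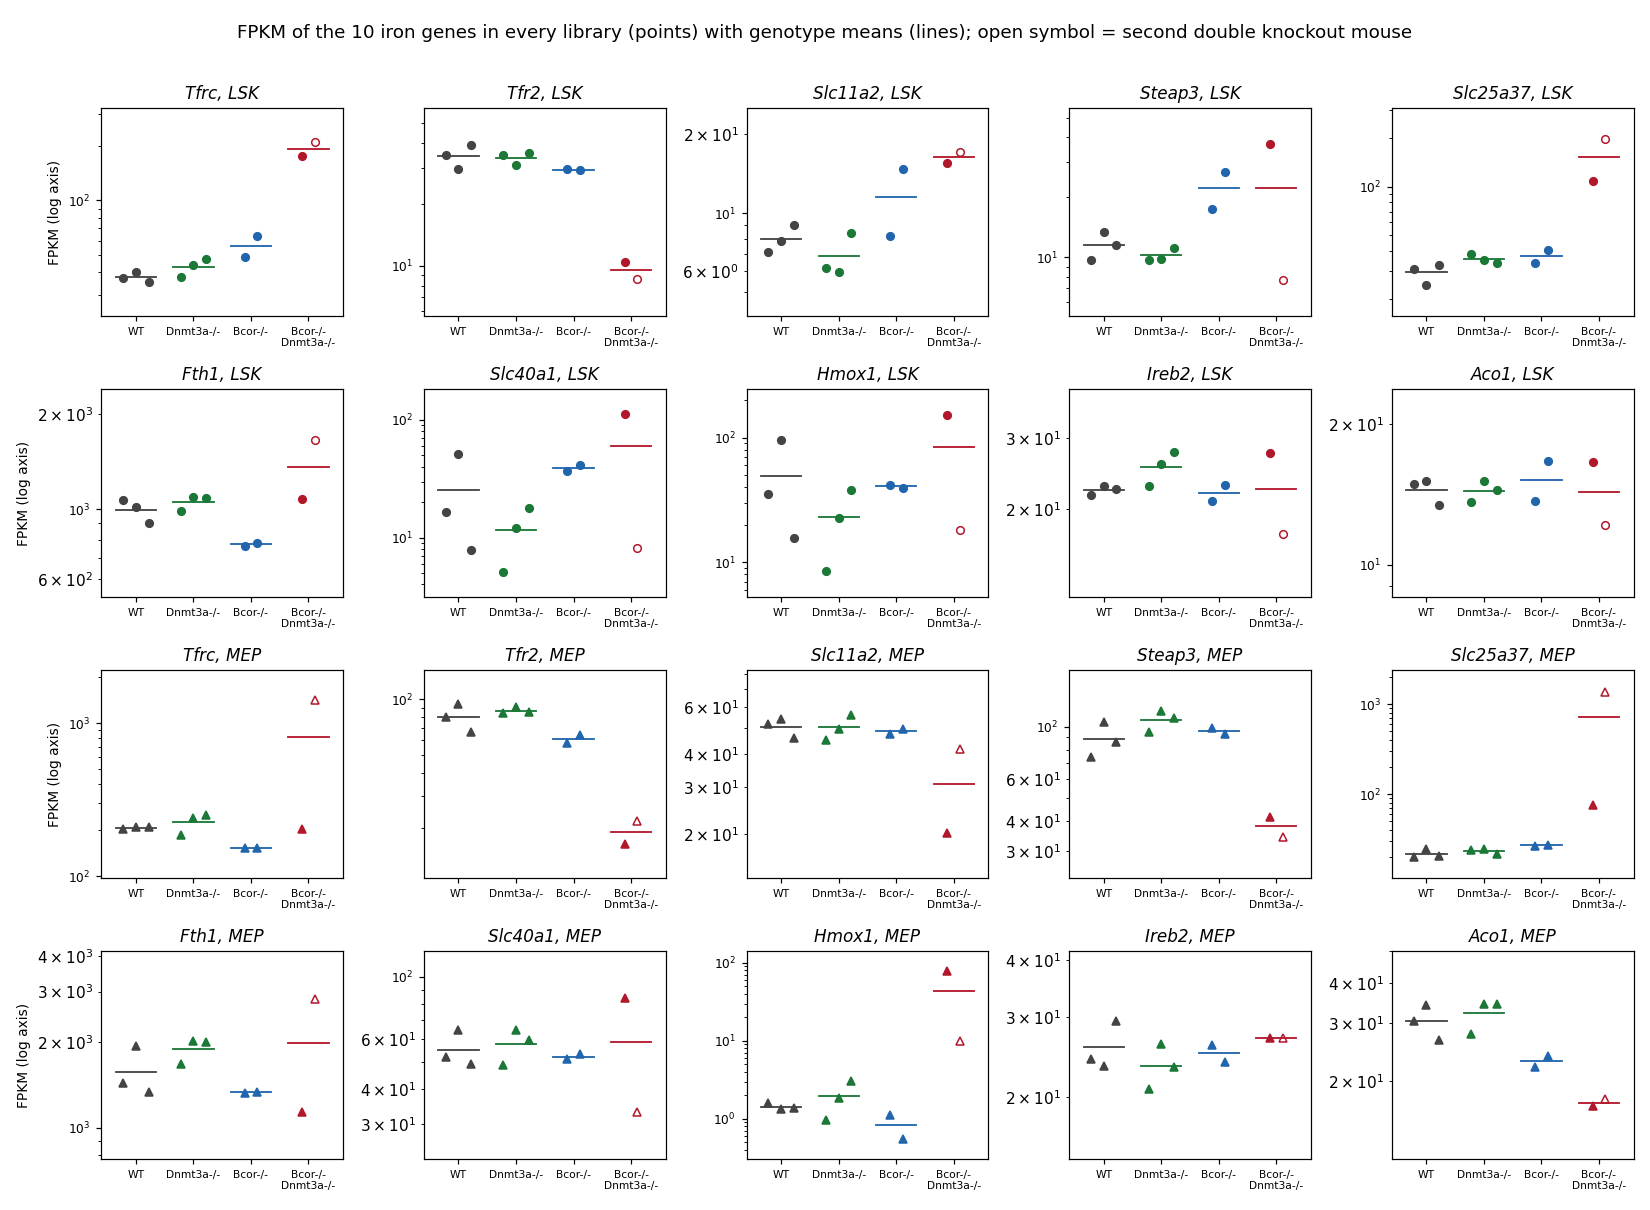
FPKM of the 10 iron genes in each library (points, log axis) by genotype, with the genotype mean as a line, LSK as circles and MEP as triangles, and the second double knockout mouse drawn open. *Tfrc*, *Tfr2*, *Slc11a2* and *Slc25a37* lie outside the WT range in both double knockout LSK libraries, as does *Fth1*, which was not called (1075 and 1653 FPKM against up to 1067 in WT). The double knockout LSK libraries lie apart for *Steap3*, *Slc40a1*, *Hmox1*, *Ireb2* and *Aco1*.

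The first question was how loss of both genes changed iron handling in LSK cells. Of the 10 members, 3 rose and 1 fell in double knockout against WT LSK, where limma called 12.3% of all tested genes higher and 11.4% lower. A gene was called at an adjusted p under 0.05 with a fold change above 1.5. *Tfrc*, *Slc11a2* and *Slc25a37* rose, *Tfr2* fell, and the other 6 were not called. In double knockout MEP, 2 members rose (*Slc25a37* and *Hmox1*) and 4 fell (*Tfr2*, *Slc11a2*, *Steap3* and *Aco1*), where 14.1% of all tested genes were called higher and 11% lower. The median log2 fold change was 0.50 over the members and 0.02 over all tested genes in LSK, and 0.01 and 0.02 in MEP. With 2 libraries against 3, the two-sided exact permutation test of a member cannot give a p below 0.1. Each called member had that value and no overlap between the groups, as did *Fth1* in LSK, which was not called. The called members were picked by limma on the same libraries, and the share of all genes without overlap was not computed. The lack of overlap therefore adds no support to the calls. Values with 1 double knockout mouse left out are given as values: the spread then comes from the other groups alone, and the lone library is assumed to vary like them.

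**Figure D2:**
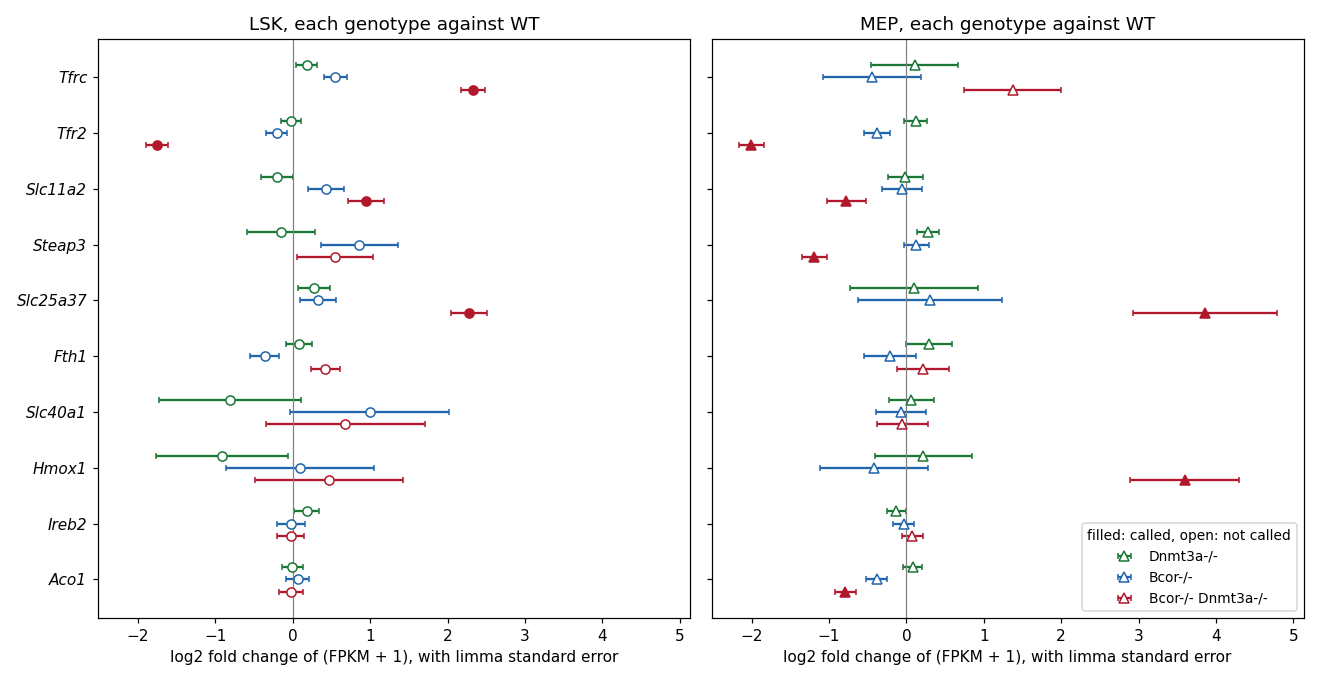
Log2 fold change of FPKM + 1 against WT for each member, with limma's standard error, in LSK (left) and MEP (right); filled symbols passed the call. All filled symbols belong to the double knockout, 4 in LSK and 6 in MEP.

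*Tfrc* encodes the transferrin receptor, CD71, the main entry for iron in erythroid cells. In LSK it was listed at 37.3, 40.4 and 35.2 FPKM in the WT libraries, 37.6, 44.0 and 47.2 in *Dnmt3a*-/- cells, 48.7 and 63.4 in *Bcor*-/- cells, and 175 and 211 in the double knockout. The double knockout libraries lie far above all others, both *Bcor*-/- libraries lie above all WT and *Dnmt3a*-/- libraries, and WT and *Dnmt3a*-/- overlap. The mean was 193 ± 25.5 FPKM (SD, n = 2) in the double knockout and 37.7 ± 2.59 (SD, n = 3) in WT, a 5.14-fold ratio of means and a log2 fold change of 2.33 ± 0.15 (SE, limma adjusted p = 3.5e-05). The value for *Bcor*-/- LSK, 0.55 ± 0.15, did not pass (limma adjusted p = 0.063).

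In the MEP table, *Tfrc* was listed at 204, 210.5 and 209 FPKM in WT. It stood at 187, 240.5 and 251 in *Dnmt3a*-/- cells, 153 and 152 in *Bcor*-/- cells, and 204 and 1422 in the double knockout. Mouse 1 of the double knockout falls within the WT range and mouse 2 is 6.96 times mouse 1. The log2 fold change against WT was 1.37 ± 0.63 (limma adjusted p = 0.12), it was -0.026 without mouse 2, and 2.77 without mouse 1. The mouse with the high value is the mouse with the high erythroid marker sum, and the part of these cells in the result was not tested.

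*Tfr2*, a second transferrin receptor that serves as an iron sensor in liver and erythroid cells, went the other way. In LSK it was 34.7, 29.6 and 39.1 FPKM in the WT libraries, 34.8, 31.0 and 35.7 in *Dnmt3a*-/- cells, 29.7 and 29.3 in *Bcor*-/- cells, and 10.4 and 8.59 in the double knockout. MEP values were 80.4, 93.7 and 66.4 in the WT libraries, 83.7, 90.2 and 85.2 in *Dnmt3a*-/- cells, 58.0 and 63.7 in *Bcor*-/- cells, and 16.5 and 21.9 in the double knockout. In both cell types the double knockout libraries were lowest, with no overlap with any other genotype, and the 2 mice agree to within 1.33-fold. Stem and megakaryocyte markers were lower in the same LSK libraries, and in MEP 2 of 8 megakaryocyte markers were called lower, and their part in the result was not tested. The log2 fold change was -1.75 ± 0.14 in LSK (limma adjusted p = 6.7e-05) and -2.01 ± 0.16 in MEP (limma adjusted p = 0.00038). It was the only member called in both cell types under every alternative tried, left-out libraries included, where a lone double knockout library is assumed to vary like the other groups.

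The receptors moved apart within the same LSK libraries. In double knockout LSK *Tfrc* stood at 175 and 211 FPKM beside *Tfr2* at 10.4 and 8.59, whereas in WT LSK they were of like level, 35.2 to 40.4 beside 29.6 to 39.1 FPKM. FPKM is scaled to transcript length, so these levels can be set side by side.

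*Slc11a2* encodes DMT1, the carrier that moves iron out of the endosome. In LSK it was listed at 7.12, 7.83 and 9.0 FPKM in the WT libraries, 6.18, 5.98 and 8.39 in *Dnmt3a*-/- cells, 8.20 and 14.8 in *Bcor*-/- cells, and 15.6 and 17.1 in the double knockout. The MEP level was 52.0, 54.2 and 46.2 in the WT libraries, 45.2, 49.8 and 56.1 in *Dnmt3a*-/- cells, 47.5 and 49.9 in *Bcor*-/- cells, and 20.2 and 41.8 in the double knockout. Both double knockout libraries lie above WT in LSK and below WT in MEP. The log2 fold change was 0.95 ± 0.23 in LSK (limma adjusted p = 0.015) and -0.78 ± 0.25 in MEP (limma adjusted p = 0.045). The LSK call was lost without WT replicate 1 (adjusted p = 0.053) and with a variance per genotype (0.28). The MEP call is fragile: it was lost when any library but that of double knockout mouse 2 was left out, and the log2 fold change was -0.27 without mouse 1 and -1.29 without mouse 2. It was also lost with no filter on low values (adjusted p = 0.066), with a variance per genotype (0.24) and with only the 2 genotypes in the fit (0.17). The MEP call was lost too with the replicate number as a block (limma adjusted p = 0.062). *Gm5475* overlaps *Slc11a2* on the other strand in GENCODE, and whether the counting used strand is not given in the sources used here.

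*Steap3*, the ferrireductase that reduces iron in the endosomes of erythroid cells, split the double knockout mice in LSK. It stood at 9.68, 13.5 and 11.5 FPKM in the WT libraries, 9.72, 9.81 and 11.1 in *Dnmt3a*-/- cells, 17.4 and 26.8 in *Bcor*-/- cells, and 36.8 and 7.71 in the double knockout. Mouse 1, with the highest macrophage marker sum, is the highest LSK library and mouse 2 the lowest, and the part of macrophages in this was not tested. Both *Bcor*-/- libraries lie above WT, with a log2 fold change of 0.86 ± 0.49 (limma adjusted p = 0.32). When either double knockout LSK library was left out of the fit, which takes the difference between these mice out of the spread, this *Bcor*-/- value passed (adjusted p = 0.012 without mouse 1 and 0.013 without mouse 2).

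In MEP, *Steap3* was listed at 74.8, 104 and 86.0 FPKM in the WT libraries, 94.6, 116 and 109 in *Dnmt3a*-/- cells, 99.0 and 92.7 in *Bcor*-/- cells, and 41.7 and 34.3 in the double knockout. Here the double knockout libraries are lowest without overlap, with a log2 fold change of -1.19 ± 0.16 (limma adjusted p = 0.0013). The call was lost with a variance per genotype (adjusted p = 0.13).

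*Slc25a37* encodes mitoferrin-1, which carries iron across the inner mitochondrial membrane of erythroid cells for heme and iron-sulfur cluster synthesis. In LSK it was 30.9, 24.6 and 32.8 FPKM in the WT libraries, 38.2, 34.9 and 33.6 in *Dnmt3a*-/- cells, 33.6 and 40.4 in *Bcor*-/- cells, and 108 and 197 in the double knockout. In MEP it was 20.1, 24.3 and 20.3 in the WT libraries, 23.8, 24.2 and 21.3 in *Dnmt3a*-/- cells, 26.4 and 27.4 in *Bcor*-/- cells, and 75.3 and 1381 in the double knockout. Mouse 1 stood at 3.71 times and mouse 2 at 68.0 times the WT median in MEP, and at 3.49 and 6.38 times in LSK. The log2 fold change was 2.28 ± 0.23 in LSK (limma adjusted p = 2e-04) and 3.85 ± 0.93 in MEP (limma adjusted p = 0.015). In MEP it was 5.94 without mouse 1 and 1.76 without mouse 2, and the call was lost with a variance per genotype (adjusted p = 0.055) and with only the 2 genotypes in the fit (0.098). *Gm20236* overlaps *Slc25a37* on the same strand in GENCODE, and reads of the overlap could be given to either.

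**Figure D3:**
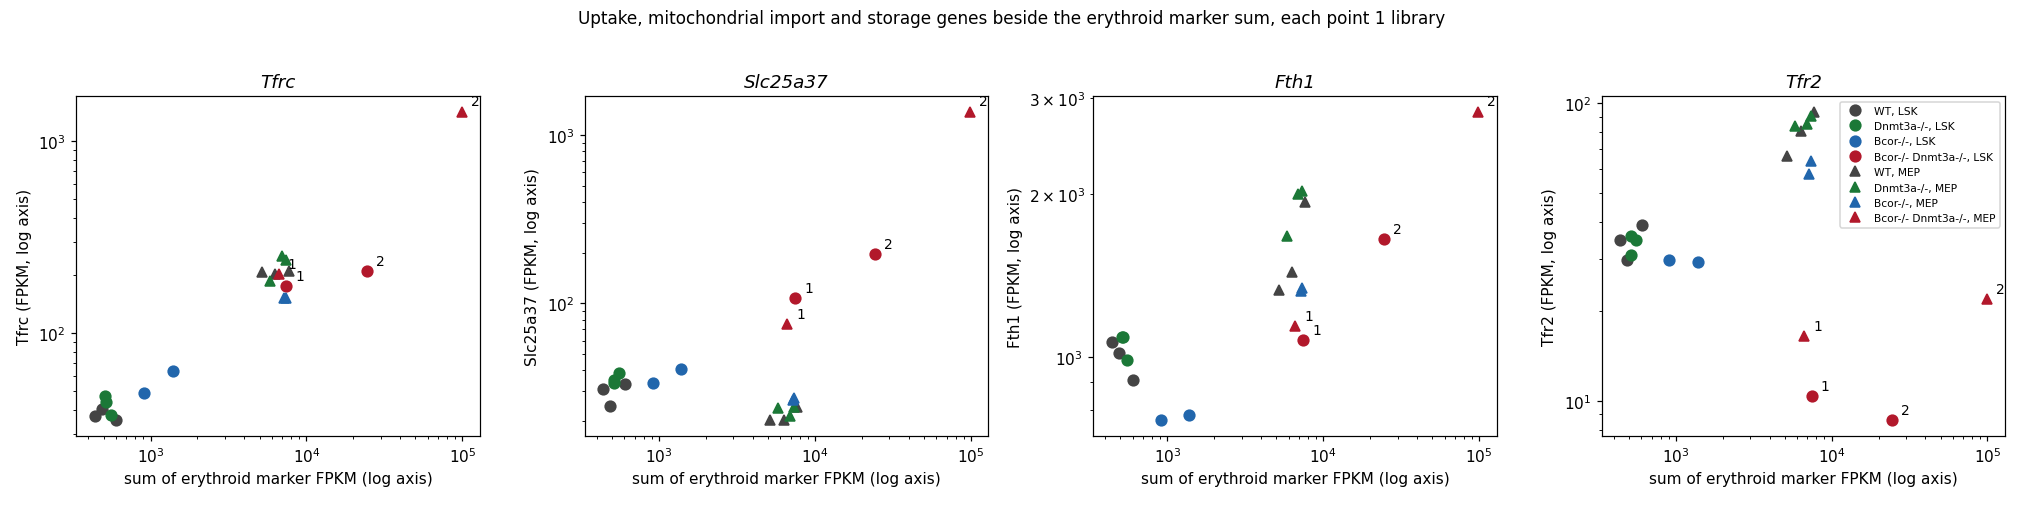
FPKM of *Tfrc*, *Slc25a37*, *Fth1* and *Tfr2* (vertical log axes) beside the summed FPKM of 15 erythroid markers (horizontal log axes), each point 1 library, double knockout mice numbered. Double knockout mouse 2 has the highest marker sum in each cell type, 24436 in LSK and 98846 in MEP, and the highest *Tfrc* and *Slc25a37*, while *Tfr2* is low in both mice.

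Erythroid markers moved with these genes in LSK. All 14 erythroid markers tested were called higher in double knockout LSK (median of their log2 fold changes, 4.15), and in MEP 3 of 14 were called higher and 1 lower, with a median of 0.18, where 14.1% of all genes were called higher and 11% lower. Mouse 1 had an erythroid marker sum in MEP of 6635 FPKM, within the WT range of 5178 to 7682, but its markers did not move together. Of the 15, 4 lay above the WT range, 3 within it and 8 below. Those above were *Hba-a1* at 1055 FPKM against 110 to 280 in WT, *Hbb-b1* at 1854 against 97.4 to 264, *Hbb-b2* at 705 against 62.4 to 177 and *Slc4a1* at 123 against 11.7 to 32.7, while *Car1* was at 1475 against 2686 to 3713. In mouse 2, 11 of the 15 lay above the WT range in MEP. Lymphoid markers also moved with the double knockout: in LSK 7 of 8 lay above the WT range and 1 below it in each mouse. In MEP 7 of 8 lay above it in mouse 1, with 1 within, and 8 in mouse 2. Some lymphoid markers passed the filter on low values only through the double knockout, so their calls are not counted. One was *Cd3e* in LSK, with means of 0.223 FPKM in WT, 0.185 in *Dnmt3a*-/- and 0.057 in *Bcor*-/-. The part of erythroid and of lymphoid cells in these values was not tested.

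*Fth1* encodes the ferritin heavy chain, whose 5′ hairpin is printed above. It was the most abundant member, at 1067, 1018 and 906 FPKM in LSK of WT mice, 989, 1091 and 1087 in *Dnmt3a*-/- mice, 765 and 782 in *Bcor*-/- mice, and 1075 and 1653 in the double knockout. MEP values were 1435, 1934 and 1330 in the WT libraries, 1672, 2019 and 1995 in *Dnmt3a*-/- cells, 1326 and 1339 in *Bcor*-/- cells, and 1139 and 2833 in the double knockout. Both *Bcor*-/- LSK libraries lie below all others, and mouse 2 of the double knockout is highest in each cell type. Against WT, the double knockout value was 0.42 ± 0.19 in LSK (limma adjusted p = 0.12) and 0.22 ± 0.34 in MEP (limma adjusted p = 0.64), and neither passed. Without mouse 1 it was 0.73 in LSK and 0.87 in MEP, and without mouse 2 it was 0.11 in LSK and -0.44 in MEP. Processed pseudogenes of *Fth1* resemble its transcript, so its level is uncertain where reads were split between them.

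Iron leaves the cell through ferroportin, encoded by *Slc40a1*. In LSK it was 16.5, 51.8 and 7.84 FPKM in the WT libraries, 5.12, 12.1 and 18.0 in *Dnmt3a*-/- cells, 36.6 and 41.8 in *Bcor*-/- cells, and 111.8 and 8.24 in the double knockout. Mouse 1 is the highest of the 10 libraries and 13.6 times mouse 2, which lies near the lowest WT library. The MEP level was 52.1, 64.5 and 49.0 in the WT libraries, 48.7, 65.0 and 59.4 in *Dnmt3a*-/- cells, 51.0 and 53.1 in *Bcor*-/- cells, and 83.8 and 33.1 in the double knockout. Mouse 1 is again highest and mouse 2 lowest, so the groups overlap in both cell types. The log2 fold change was 0.68 ± 1.02 in LSK (limma adjusted p = 0.66) and -0.05 ± 0.33 in MEP (limma adjusted p = 0.92). In MEP it was 0.60 with mouse 1 alone and -0.71 with mouse 2 alone.

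*Hmox1* encodes heme oxygenase 1, which opens the heme ring and frees its iron, and which is abundant in macrophages that digest red cells. In LSK it was 35.6, 96.1 and 15.7 FPKM in the WT libraries, 8.54, 22.8 and 37.9 in *Dnmt3a*-/- cells, 41.8 and 39.6 in *Bcor*-/- cells, and 151 and 18.0 in the double knockout. WT alone spanned 15.7 to 96.1 FPKM, and the double knockout value of 0.46 ± 0.96 was not called (limma adjusted p = 0.75). In MEP it was near 1 FPKM outside the double knockout, at 1.61, 1.32 and 1.36 in WT, 0.968, 1.83 and 3.06 in *Dnmt3a*-/-, and 1.13 and 0.547 in *Bcor*-/-. The double knockout MEP libraries stood at 78.3 and 9.85 FPKM, both above all others, a log2 fold change of 3.59 ± 0.70 (limma adjusted p = 0.0061). It was 5.03 without mouse 2 and 2.16 without mouse 1. The call was lost with a variance per genotype (adjusted p = 0.098) and with only the 2 genotypes in the fit (0.056).

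In LSK, macrophage markers moved with both genes. The libraries with the highest marker sums, double knockout mouse 1 at 1960 FPKM and WT 2 at 419, had the highest *Hmox1* and *Slc40a1*, and the library with the lowest sum, *Dnmt3a*-/- 1 at 53.9, had the lowest of both. In MEP, some macrophage markers passed the filter on low values only through the double knockout, so their calls are not counted and levels are given. One was *Siglec1*, with means of 0.031 FPKM in WT, 0.116 in *Dnmt3a*-/- and 0.022 in *Bcor*-/-. *C1qa*, a complement gene of tissue macrophages, was at 360 FPKM in LSK and 174 in MEP of mouse 1, and at 7.38 and 0.616 in mouse 2. *Hmox1* in MEP of mouse 2, at 9.85 FPKM, was 7.25 times the WT median. In that library the macrophage marker sum was 38.5 FPKM against 8.19 to 12.9 in WT, and 10 of 14 markers lay above the WT range, among them *Csf1r* at 9.49 against 0.425 to 1.502 and *Cd68* at 18.9 against 3.19 to 7.28, with 3 within it and 1 below. In mouse 1 all 14 lay above it. *Slc40a1* in MEP did not order with the markers outside the double knockout, standing at 48.7 to 65.0 FPKM with marker sums of 8.19 to 13.9, and in double knockout mouse 2 it was the lowest of the 10 libraries while the marker sum lay above WT. The part of macrophages in these results was not tested.

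**Figure D4:**
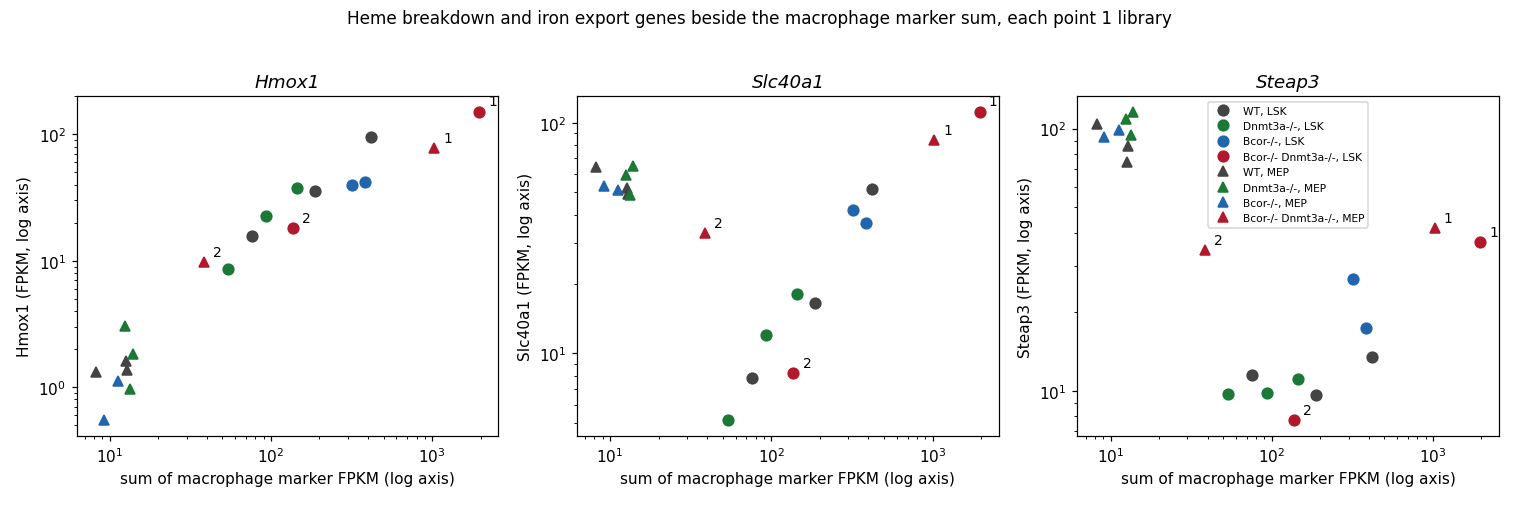
FPKM of *Hmox1*, *Slc40a1* and *Steap3* (vertical log axes) beside the summed FPKM of 14 macrophage markers (horizontal log axes), each point 1 library, double knockout mice numbered. Double knockout mouse 1 has the highest marker sum and the highest *Hmox1* and *Slc40a1* in both cell types.

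The genes most alike to these members over the 10 libraries of a cell type, by Pearson's r of log2 values, are a description of shared pattern among libraries that also share genotype. For *Slc40a1* in LSK they were *Fcna* (r = 0.991), *C1qa* (0.975) and *C1qb* (0.975), and for *Hmox1* in LSK they were *Mrc1* (0.966), *Fcna* (0.963) and *Itgad* (0.96). For *Tfrc* in LSK they were *Sowaha* (0.992), *Tlr1* (0.991) and *Epb4.2* (0.989), the last a red cell membrane gene. For *Slc25a37* in MEP they were *Ube2l6* (0.997), *Tmcc2* (0.997) and *Bcl2l1* (0.995).

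*Ireb2* and *Aco1* encode the 2 iron regulatory proteins, and *Aco1* doubles as cytosolic aconitase when it carries an iron-sulfur cluster. *Ireb2* in LSK was 21.6, 22.9 and 22.5 FPKM in the WT libraries, 22.8, 25.9 and 27.7 in *Dnmt3a*-/- cells, 21.0 and 23.0 in *Bcor*-/- cells, and 27.5 and 17.4 in the double knockout. In MEP it was 24.3, 23.4 and 29.4 in the WT libraries, 20.8, 26.1 and 23.3 in *Dnmt3a*-/- cells, 26.1 and 23.9 in *Bcor*-/- cells, and 27.02 and 26.95 in the double knockout. Its level thus stayed between 17.4 and 29.4 FPKM in all 20 libraries, with double knockout log2 fold changes of -0.03 ± 0.18 in LSK and 0.07 ± 0.14 in MEP (limma adjusted p = 0.92 and 0.69).

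*Aco1* in LSK was 14.9, 15.1 and 13.4 FPKM in the WT libraries, 13.6, 15.1 and 14.5 in *Dnmt3a*-/- cells, 13.7 and 16.7 in *Bcor*-/- cells, and 16.6 and 12.2 in the double knockout, and the groups overlap. MEP values were 30.4, 34.1 and 26.7 in the WT libraries, 27.9, 34.4 and 34.5 in *Dnmt3a*-/- cells, 22.1 and 23.9 in *Bcor*-/- cells, and 16.7 and 17.6 in the double knockout. The double knockout MEP libraries lie below all others and near the LSK level. *Aco1* fell in double knockout MEP by 0.79 ± 0.14 on the log2 scale (limma adjusted p = 0.0039), and its LSK log2 fold change was -0.02 ± 0.15 (limma adjusted p = 0.92). The MEP call was lost with a variance per genotype (adjusted p = 0.24).

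**Figure D5:**
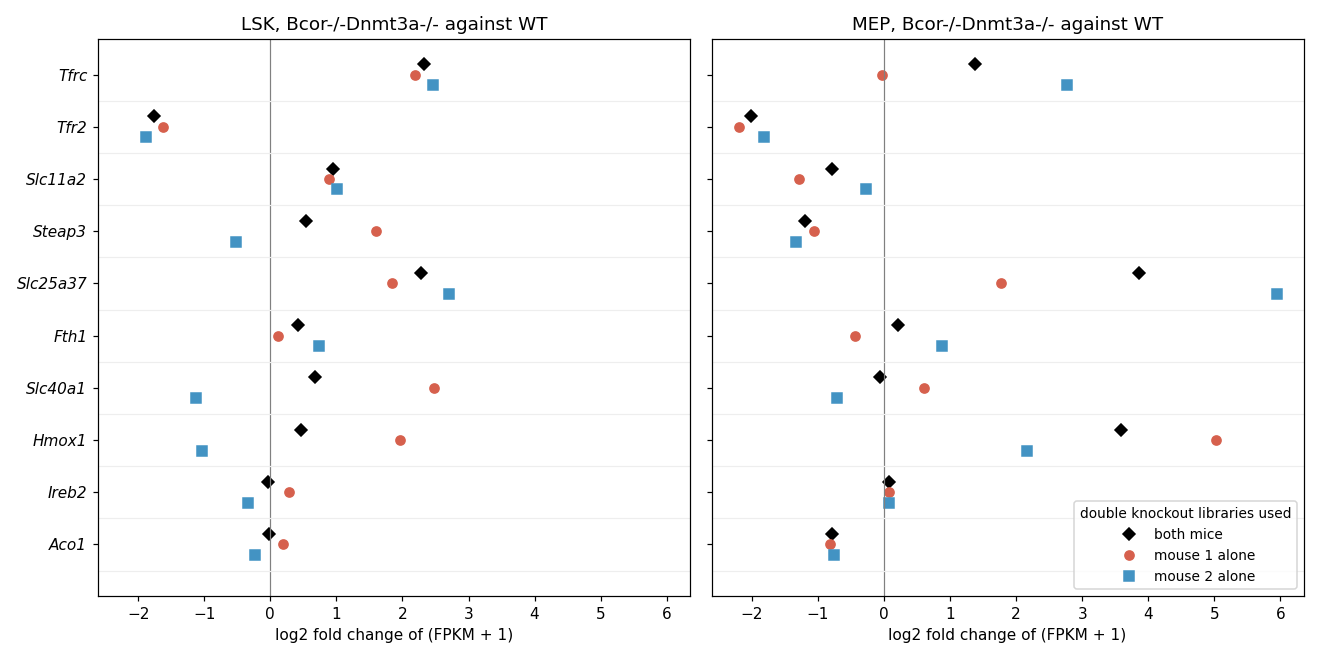
Log2 fold change of each member in double knockout against WT with both mice (diamonds), with mouse 1 alone (circles) and with mouse 2 alone (squares), in LSK (left) and MEP (right). *Tfr2* keeps nearly the same value with either mouse, and the mice lie on opposite sides of 0 for *Steap3*, *Slc40a1*, *Hmox1*, *Ireb2* and *Aco1* in LSK and for *Tfrc*, *Fth1* and *Slc40a1* in MEP.

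To test whether losing both genes acted differently in LSK and MEP, the MEP log2 value of a mouse was subtracted from its LSK log2 value. The double knockout effect differed for 4 of 10 members, *Slc11a2*, *Steap3*, *Hmox1* and *Aco1*, and for 20% of all 10773 genes tested at an adjusted p under 0.05. The effect in LSK minus that in MEP was 1.73 ± 0.35 for *Slc11a2* (limma adjusted p = 0.014), 1.73 ± 0.50 for *Steap3* (0.04), -3.13 ± 0.79 for *Hmox1* (0.027) and 0.76 ± 0.18 for *Aco1* (0.02). For *Tfrc* it was 0.96 ± 0.58 (limma adjusted p = 0.25) and for *Slc25a37* -1.57 ± 0.72 (0.14), so a difference between cell types was not detected for either. Of the 4 calls, 0 held without WT mouse 1 or without WT mouse 2, and 2 held without *Dnmt3a*-/- mouse 3. The *Steap3* call held only when double knockout mouse 2 was the mouse left out, where the difference was 2.66, and without mouse 1 it was 0.81. It was lost with no filter on low values (adjusted p = 0.055).

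The single knockouts bore no called member in either cell type. In *Bcor*-/- LSK, 3.9% of all genes were called higher and 1.87% lower, and 0 of 10 members, with 1 of 10 at an unadjusted p under 0.05, *Tfrc*, beside 25% of all genes. In *Bcor*-/- MEP, 0.0183% of genes were called higher and 0.0457% lower, and 0 of 10 members, with *Tfr2* (log2 fold change -0.38) and *Aco1* (-0.39) at an unadjusted p under 0.05, beside 5.46% of all genes. In *Dnmt3a*-/- cells limma called 0% of genes in each direction, in LSK and in MEP. At an unadjusted p under 0.05 there were 0 members, beside 1.31% of all genes in LSK and 2.06% in MEP. The *Bcor*-/- effect differed between cell types for 0.251% of genes and the *Dnmt3a*-/- effect for 0%, and for 0 members in each. At an unadjusted p under 0.05, 1 member, *Aco1*, differed between cell types in the *Bcor*-/- effect, beside 17.9% of all genes.

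The double knockout was also set against *Bcor*-/- alone, which asks what differed when *Dnmt3a* was lost besides *Bcor*. The double knockout mice were leukemic, and the study found no leukemia in *Bcor*-/- mice. The effect of *Dnmt3a* loss and that of leukemia therefore cannot be told apart here. The 2 comparisons share the double knockout libraries, so their values are only given side by side. In LSK, 3 members were called higher, *Tfrc* at 1.77 ± 0.17, *Slc25a37* at 1.95 ± 0.26 and *Fth1* at 0.79 ± 0.20 (limma adjusted p = 0.00025, 0.00093 and 0.02), and *Tfr2* was called lower at -1.54 ± 0.15 (0.00031). Of all genes, 13% were called higher and 12.3% lower. In MEP, *Slc25a37* at 3.54 ± 1.02 and *Hmox1* at 4.02 ± 0.77 were called higher and *Tfr2* at -1.63 ± 0.18 and *Steap3* at -1.32 ± 0.17 lower (limma adjusted p = 0.036, 0.0079, 0.0011 and 0.002), beside 10.9% and 9.38% of all genes. With 2 libraries against 2 the exact permutation p cannot be below 0.33, and *Slc25a37* in MEP lost its call when any library other than a double knockout library was left out, and with no filter on low values (adjusted p = 0.06). Without double knockout mouse 1 and without mouse 2 the MEP value was 5.63 and 1.45 for *Slc25a37* and 2.58 and 5.45 for *Hmox1*. The *Hmox1* call in MEP was lost without *Bcor*-/- replicate 2 (adjusted p = 0.066). The *Fth1* call in LSK was lost without *Bcor*-/- replicate 1 (adjusted p = 0.089), without *Bcor*-/- replicate 2 (0.085), and without double knockout mouse 2, where the log2 fold change was 0.47 and under the fold threshold. It was also lost with no filter on low values (adjusted p = 0.066) and with a variance per genotype (0.14). With only the 2 genotypes in the fit all 4 LSK calls were lost, with adjusted p of 0.071 for *Tfrc*, 0.071 for *Tfr2*, 0.091 for *Slc25a37* and 0.22 for *Fth1*, and all 4 MEP calls were lost in that fit and with a variance per genotype.

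The rest of the pathway was read through 5 lists with 60 gene names, of which 54 were in the tables. In double knockout LSK, 8 of 41 tested genes were called higher and 3 lower, where 12.3% and 11.4% of all tested genes were. Of those 8, *Fam132b* and *Cp* passed the filter on low values only through the double knockout libraries, so that a difference was built into their being tested, and 6 remain without them. In double knockout MEP 4 of 40 rose and 6 fell, where 14.1% and 11% of all genes did. The counts are read against these shares, for each list below too. *Fam132b* encodes erythroferrone, the erythroblast hormone that lowers hepcidin. WT LSK libraries held 0.505, 0.331 and 0.549 FPKM of it and double knockout LSK libraries 12.8 and 9.57, given as levels only. In MEP, where it passed the filter without the double knockout too, it was 0.546, 0.649 and 0.609 in WT and 10.5 and 57.9 in the double knockout, a log2 fold change of 4.03 ± 0.54 (limma adjusted p = 0.0014).

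Of 17 tested genes for mitochondrial iron and iron-sulfur clusters, 4 rose and 2 fell in double knockout LSK (12.3% and 11.4% of all genes), and 0 rose and 5 fell in double knockout MEP (14.1% and 11% of all genes). The transporter *Abcb10*, which stabilises mitoferrin-1, was 8.68, 10.6 and 12.5 FPKM in LSK of WT mice and 49.9 and 50.3 in the double knockout, with a log2 fold change of 2.16 ± 0.22 (limma adjusted p = 0.00019). The cluster transfer gene *Glrx5* rose by 1.16 ± 0.15 (limma adjusted p = 0.00055) and the co-chaperone *Hscb* fell by 0.85 ± 0.19 (0.01). *Abcb10* at 20.8 and 33.1 FPKM and *Glrx5* at 66.2 and 79.8 FPKM were also called in *Bcor*-/- LSK, in which 4 of the 41 genes were called higher and 0 lower, beside 3.9% and 1.87% of all genes. In *Bcor*-/- LSK 7 of 14 erythroid and 4 of 10 granulocyte markers were also called higher, with erythroid sums of 911 and 1387 FPKM against 439 to 605 in WT, and their part in these results was not tested. In MEP the genes with the largest falls were *Fdx1l* (-1.01 ± 0.18), *Lyrm4* (-0.84 ± 0.17) and *Nfs1* (-0.70 ± 0.15), an electron carrier and subunits of the cluster-building enzyme (limma adjusted p = 0.0038, 0.0078 and 0.01).

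Among 7 tested genes of export and heme recycling, 2 were called higher in double knockout LSK, *Blvrb* and *Cp*. *Blvrb*, biliverdin reductase B, was 18.4, 31.9 and 31.2 FPKM in WT, 91.8 ± 28.5 (SD, n = 2) in *Bcor*-/- and 249.7 and 184 in the double knockout (log2 fold change 2.97 ± 0.29, limma adjusted p = 0.00017). *Cp*, ceruloplasmin, a ferroxidase, was 0.274 to 0.440 FPKM in WT and 4.27 and 3.94 in the double knockout, given as levels only since it was tested through those libraries. Among 4 tested storage and chaperone genes, the ferritin light chain *Ftl1* rose by 0.61 ± 0.18 (limma adjusted p = 0.035) and the ferritin receptor *Ncoa4* fell by 0.68 ± 0.12 (0.0033) in LSK, and none was called in MEP.

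Of the 4 tested regulators, *Fam132b*, *Fbxl5* and *Bach1* rose in double knockout MEP and *Nfe2l2*, named after its value was seen, fell. *Fbxl5* was 34.5 and 25.4 FPKM in the double knockout against 14.8 to 16.6 in WT, a log2 fold change of 0.88 ± 0.16 (limma adjusted p = 0.0045). *Bach1* was 12.4 and 31.4 FPKM against 8.33 to 11.6 in WT, a log2 fold change of 0.97 ± 0.31 (limma adjusted p = 0.044), with mouse 1 close to the WT range and mouse 2 far above it. *Fbxl5* marks IREB2 for degradation when iron is plentiful, and *Bach1* represses *Hmox1*. In the uptake list, 1 of 9 tested genes rose in MEP and 0 in LSK. It was *Lcn2*, a siderophore-binding protein of neutrophil granules, at 13.9, 7.57 and 11.9 FPKM in WT and 186 and 638 in the double knockout (log2 fold change 4.87 ± 0.59, limma adjusted p = 0.00095). The summed level of 10 granulocyte markers in those MEP libraries was 6797 and 15276 FPKM, against 313 to 776 in WT, and the part of granulocytes in this result was not tested.

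The tables of the cell types may have been normalized separately, so levels are only set side by side between them. In WT, the mean of *Tfrc* was 37.7 ± 2.59 FPKM in LSK and 208 ± 3.44 in MEP (SD, n = 3), that of *Steap3* 11.6 ± 1.89 and 88.4 ± 14.9, that of *Slc11a2* 7.99 ± 0.95 and 50.8 ± 4.14, and that of *Aco1* 14.5 ± 0.94 and 30.4 ± 3.72. *Hmox1* ran the other way, at 49.1 ± 41.9 in LSK and 1.43 ± 0.16 in MEP, and *Slc25a37* stood at 29.4 ± 4.33 and 21.6 ± 2.35.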

How the data were processed

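RNA was sequenced from LSK and MEP cells sorted from mouse bone marrow, 10 libraries of each. Expression was deposited as FPKM, in a table of 24315 genes for LSK and another for MEP. The submitters' processing notes name STAR 2.5.1b, SAMtools 1.9, Cufflinks 2.2.1 and build mm9. The tables hold no counts, so depth is unknown. The members and gene lists were chosen with earlier results of these data known.

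FPKM were converted to log2 after adding 1, so fold changes of low genes are understated, and genes averaging under 1 FPKM within a cell type were dropped, leaving 11952 in LSK and 10933 in MEP. A model with 1 mean per genotype was fitted with limma 3.58.1 in R 4.3.3, with a mean-variance trend and Benjamini-Hochberg adjustment over all tested genes. Calls needed a fold change above 1.5 at an adjusted p below 0.05. The methods text used here filters on p and gives no test or adjustment, so the unadjusted p was an alternative. Members were also compared by two-sided exact permutation. LSK minus MEP values per mouse, fitted in the same way, gave the difference of effects. The procedure was also run on simulated data in which all genotypes of a gene shared the same spread. That run therefore does not cover the wider spread between the double knockout mice seen for some members. All 10 members were named, with the 3 largest called changes per pathway list and cell type and, for some, the 3 genes most alike to a member. Figures used Python 3.11.15 and matplotlib 3.10.9. Hairpins were read from GENCODE transcripts of GRCm38. The labels name the mouse of each library, but do not say that mice of a group came from separate litters.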

Additional observations from a re-analysis of the deposited data

Results flagged for a closer look

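For 4 members the effect of the double knockout differed between the cell types, by limma's test on the LSK minus MEP difference of each mouse, as it did for 20% of all 10773 genes tested. Of these 4 calls, 0 held without WT mouse 1, without WT mouse 2 or with a variance per genotype, 2 held without *Dnmt3a*-/- mouse 3, and that of *Steap3* held in 1 of 10 fits with a mouse left out. *Slc11a2* had a log2 fold change of 0.95 in LSK and -0.78 in MEP, a difference of 1.73 (adjusted p = 0.014). Both double knockout mice showed that direction, above the WT range in LSK and below it in MEP. *Steap3* had 0.54 in LSK and -1.19 in MEP, a difference of 1.73 (adjusted p = 0.04), and in LSK the mice lay on opposite sides of WT. The difference was 0.81 without double knockout mouse 1 and 2.66 without mouse 2. *Hmox1* had 0.46 in LSK and 3.59 in MEP, a difference of -3.13 (adjusted p = 0.027). *Aco1* had -0.02 in LSK and -0.79 in MEP, a difference of 0.76 (adjusted p = 0.02). A library far from the others of its group was not looked for by a gap test, because groups of 2 or 3 are too small for it.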

How the results depend on the processing

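Depth is unknown and groups hold 2 or 3 libraries, and the double knockout mice differ in cell markers, so the spread of that group is poorly known. *Tfrc*, *Tfr2* and *Slc25a37* in LSK and *Tfr2* in MEP were called in double knockout against WT under every alternative tried. When each library was left out in turn, with a lone double knockout or *Bcor*-/- library assumed to vary like the other groups, the number of members called ranged from 3 to 6 in LSK and from 5 to 8 in MEP for double knockout against WT, and from 3 to 5 and from 2 to 7 against *Bcor*-/-. It ranged from 0 to 1 in *Bcor*-/- LSK against WT, from 0 to 5 for the double knockout effect in LSK minus MEP, and from 0 to 1 for that of *Bcor*-/-. With a variance for each genotype, the number called was 3 against 4 in the main analysis in double knockout LSK, both over WT and over *Bcor*-/-, 1 (*Tfr2*) against 6 in double knockout MEP over WT, 0 against 4 for double knockout over *Bcor*-/- in MEP, 0 against 4 for the double knockout effect in LSK minus MEP, 1 against 0 in *Bcor*-/- LSK and 2 against 0 for the *Bcor*-/- effect in LSK minus MEP. With only the genotypes compared in the fit, it was 3 in double knockout MEP, 1 in *Bcor*-/- LSK, and 0 in LSK and in MEP for double knockout over *Bcor*-/-. Quantile normalization gave 1 in *Bcor*-/- LSK and reversed the double knockout log2 fold change against WT of *Fth1* in LSK (-0.0051), *Fth1* in MEP (-0.024) and *Ireb2* in MEP (-0.013), all uncalled. It also gave 6 against 4 for double knockout over *Bcor*-/- in MEP. With the unadjusted p, 6 were called there (3 higher and 3 lower), and the count stayed the same in the other comparisons between genotypes. The cause of these changes was not tested.

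Values of double knockout against WT that changed sign between left-out libraries ranged in LSK from -0.23 to 0.18 for *Aco1*, -1.04 to 1.96 for *Hmox1*, -0.52 to 1.60 for *Steap3*, -1.13 to 2.48 for *Slc40a1* and -0.35 to 0.29 for *Ireb2*. In MEP the ranges were -0.71 to 0.60 for *Slc40a1*, -0.026 to 2.77 for *Tfrc* and -0.44 to 0.87 for *Fth1*. The LSK minus MEP difference of the double knockout effect ranged from -0.31 to 2.22 for *Tfrc* and from -3.23 to 0.083 for *Slc25a37*.

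Replicate numbers recur across genotypes, but the labels do not say that they mark a shared litter or day, and correlations of deviations from the genotype mean between libraries of 1 number ranged from -0.058 to 0.087 in LSK and from -0.193 to 0.336 in MEP. Between WT and *Dnmt3a*-/- MEP they were 0.194, 0.336 and -0.193 for numbers 1, 2 and 3, so not every library correlated best with its own number. Among *Dnmt3a*-/-, *Bcor*-/- and double knockout MEP libraries of 1 number they ranged from 0.122 to 0.211. For WT with *Bcor*-/- or double knockout MEP they ranged from -0.07 to 0.055. With the number as a replicate block, 5 members were called in double knockout MEP, *Slc11a2* being lost (-0.77, limma adjusted p = 0.062), and *Ireb2* in LSK changed to 0.0048. In the other 7 comparisons between genotypes the count of members called stayed the same with the block.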
